A study of Homo sapiens with 9 samples.

Results

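The 33 genes described here are transcriptional targets of the tumour suppressor p53, chosen by gene symbol from a list of established targets. All 33 were present among the 58676 genes of the count table, and 32 of them were among the 16239 genes with enough reads to be tested. The exception was TNFRSF10D, a decoy receptor for the death ligand TRAIL, with 0 to 13 reads in each of the 9 libraries. The RNA came from HaCaT cells, a spontaneously immortalised human keratinocyte line that carries mutant p53, so the question was which of these genes moved at all. The cells were exposed for 14 h to 1% DMSO as the control, to CDDO-Me at 250 nM or to PRL-295 at 10 µM, with 3 libraries per group. Whether the cells given a compound also received DMSO is not stated in the labels, so the vehicle may be part of each comparison with DMSO. CDDO-Me is a triterpenoid electrophile that modifies KEAP1, the adaptor that sends the transcription factor NRF2 for degradation, and PRL-295 is a non-electrophilic molecule that blocks the binding of KEAP1 to NRF2. The doses of both compounds differ, all libraries are from 1 cell line, and the sample labels do not state whether replicates were grown as separate cultures, so p-values measure only the spread between these samples.

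p53 is a transcription factor that is stabilised by DNA damage and other stress and binds DNA elements built from a pair of decamers, called half-sites. Its targets halt the cell cycle, repair DNA, adjust metabolism or start cell death, and include MDM2, the ubiquitin ligase that marks p53 itself for destruction. In keratinocytes the related factor p63, a product of TP63, recognises much the same elements and is needed for the epidermal lineage. Some of these genes, such as CDKN1A and SFN, are also controlled by other factors, so that their RNA can be present without functional p53.

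Stretches of promoter are shown for members whose values the results turn on or whose promoter held the p53 half-site. Of the 33 genes, 25 had a promoter entry in RefSeq (GRCh38.p14), and the 250 bases before the RefSeq start were searched on both strands; there was none for TNFRSF10A, TNFRSF10B, TNFRSF10D, RRM2B, TP53INP1, PHLDA3, FBXO22 and GADD45A. A half-site lay in 3 of these 25 promoters (12%) and in 5.53% of the 27303 promoters in the table. The matches began 132 bases before the RefSeq start in PLK2, 34 bases before it in AEN and 11 bases before it in FDXR, and each is printed in capitals within a window of 30 bases, 5′ to 3′ along the gene's strand. The earliest starts in GENCODE 29 lie further upstream, and all 30 bases of each of the 3 windows lie within exons of the gene there.
PLK2, chr5:58460199-58460228, minus strand: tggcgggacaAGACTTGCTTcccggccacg
AEN, chr15:88621296-88621325, plus strand: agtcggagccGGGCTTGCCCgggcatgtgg
FDXR, chr17:74872995-74873024, minus strand: ggcgggcccgggcaggagcGGGCTTGCCCt
None of the 3 motifs searched was found in the promoters of CDKN1A, SFN and TP53I3, all of which rose with CDDO-Me. For CDKN1A and SFN the bases that lie in no GENCODE 29 exon of the gene are shown, in lower case throughout; the CDKN1A stretch lies inside the span of that gene, whose longer transcripts start upstream of it, and the SFN stretch lies before the gene.
CDKN1A, chr6:36678464-36678657, plus strand: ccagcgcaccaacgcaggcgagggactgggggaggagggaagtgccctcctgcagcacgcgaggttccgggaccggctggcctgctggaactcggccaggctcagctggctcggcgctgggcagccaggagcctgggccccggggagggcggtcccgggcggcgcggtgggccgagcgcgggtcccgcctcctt
SFN, chr1:26862899-26863137, plus strand: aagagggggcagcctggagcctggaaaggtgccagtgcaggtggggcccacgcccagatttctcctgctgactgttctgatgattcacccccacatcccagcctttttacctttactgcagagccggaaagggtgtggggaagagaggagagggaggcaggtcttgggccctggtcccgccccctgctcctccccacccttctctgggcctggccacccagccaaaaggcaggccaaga
The core of the antioxidant response element, the sequence that NRF2 binds, was searched as TGACNNNGC and occurred in 4 of the 25 promoters (16%; BAX, FAS, POLH and XPC) and in 11% of all promoters. The AP-1 site, TGAGTCA, occurred in 1 of the 25 (4%; BBC3) and in 4.16% of all. These matches describe the letters in this window only, and a p53 element further from the start would not be seen.

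The 9 libraries held 23383800 to 32942156 counts each, and 3 counts, the limit that a count of 0 allows, corresponded to 0.0922 to 0.127 CPM (the count relative to the library total after TMM scaling), counting error alone. Reads were found for 14543 genes in CDDO-Me replicate 1 and for 17821 to 23271 genes in each other library. Libraries also differed in how their counts varied with the GC content of genes. The correlations across genes were 0.206 to 0.271 in the DMSO libraries and -0.546 (replicate 2) to -0.0168 in the CDDO-Me libraries. In the PRL-295 libraries they ran from -0.333 (replicate 1) to 0.269. This trend differed between DMSO and CDDO-Me, so a correction for GC content may also remove part of a treatment effect. All 6 keratinocyte markers were above 1 CPM in each library, with a summed CPM of 11900 to 12600 in the DMSO group, 15400 to 17000 in the CDDO-Me group and 9570 to 10200 in the PRL-295 group. Summed fibroblast markers reached at most 13.1 CPM, melanocyte markers 3.77 CPM, endothelial markers 2.56 CPM and immune markers 1.98 CPM. Of 8 NRF2 target genes read as a check of the treatments, 8 rose with CDDO-Me (100%, where 4.65% of all tested genes rose). With PRL-295 7 of the 8 rose (87.5%, where 0.462% of all tested genes rose).

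The p53 targets covered a wide range of levels in HaCaT cells given DMSO alone. In FPKM (fragments per kilobase of gene, scaled to library size, the deposited unit that allows comparison between genes), 13 of the 33 were above 10 in DMSO, 12 were between 1 and 10 and 8 were below 1. SFN, which encodes the epithelial cell cycle regulator 14-3-3 sigma, stood far above the rest at 1148 ± 51.7 FPKM (SD, n = 3), at the 99.8th percentile of the tested genes. Next came PHLDA3, an inhibitor of AKT signalling, at 63.8 FPKM, CDKN1A, which encodes the cyclin-dependent kinase inhibitor p21, at 52.2 ± 6.46 FPKM (SD, n = 3), and BAX, a pore-forming death effector of the mitochondrial outer membrane, at 47.1 ± 8.05 FPKM (SD, n = 3). The spread of these last 2 genes overlapped. MDM2 was low, at 1.21 ± 0.106 FPKM (SD, n = 3). Below 1 FPKM were RRM2B, SESN1, ZMAT3, GDF15, TP53INP1, TIGAR, CYFIP2 and TNFRSF10D, in falling order from 0.856 to 0.0297 FPKM.

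**Figure D1:**
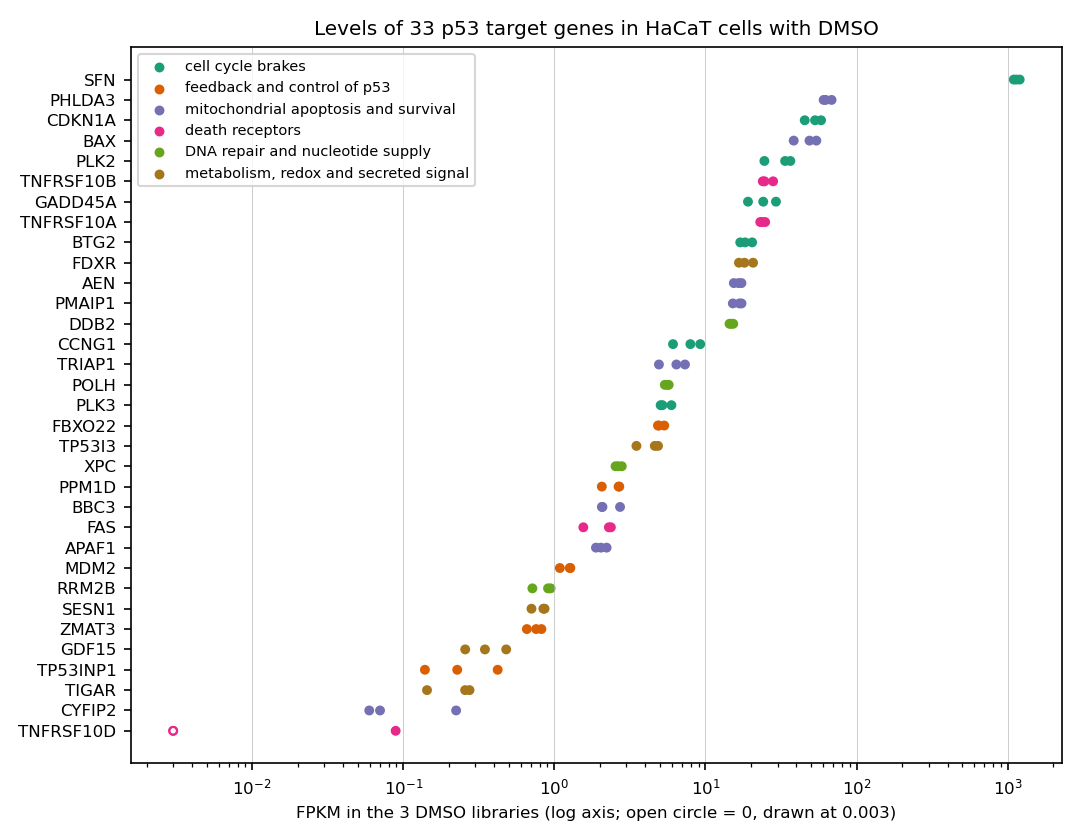
Level of each of the 33 p53 targets in the 3 DMSO libraries, in FPKM on a log axis, ordered by level and coloured by role. Values of 0 are drawn as open circles at 0.003 FPKM. SFN lies above the other 32 genes in all 3 libraries, while MDM2 lies between 1.09 and 1.28 FPKM and RRM2B between 0.72 and 0.94 FPKM.

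With CDDO-Me, 5 of the 32 tested p53 targets rose and none fell. These were CDKN1A, SFN and PLK2 among the cell cycle brakes, RRM2B in nucleotide supply and TP53I3 in redox metabolism, with increases from 1.43-fold to 2.75-fold. None of the feedback genes, mitochondrial death genes or death receptors passed the test, an adjusted p under 0.05 in edgeR's quasi-likelihood test over all 16239 genes. The 5 genes are 15.6% of the 32, where 4.65% of all tested genes rose and 4.57% fell. The median log2 fold change was 0.03 over the 32 genes and 0.01 over all tested genes, 16 of the 32 were above 0, and the median absolute log2 fold change was 0.40 in both. Since the RNA was extracted in bulk, fewer cells of a type and less RNA per cell cannot be told apart in these values. DESeq2 called 6 of the list higher, adding ZMAT3, and 1 lower, FDXR, where it called 10.2% of its genes higher and 9.29% lower. The edgeR count was 3 without DMSO replicate 1, DMSO replicate 3 or PRL-295 replicate 3, and 2 without DMSO replicate 2, CDDO-Me replicate 2 or CDDO-Me replicate 3.

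**Figure D2:**
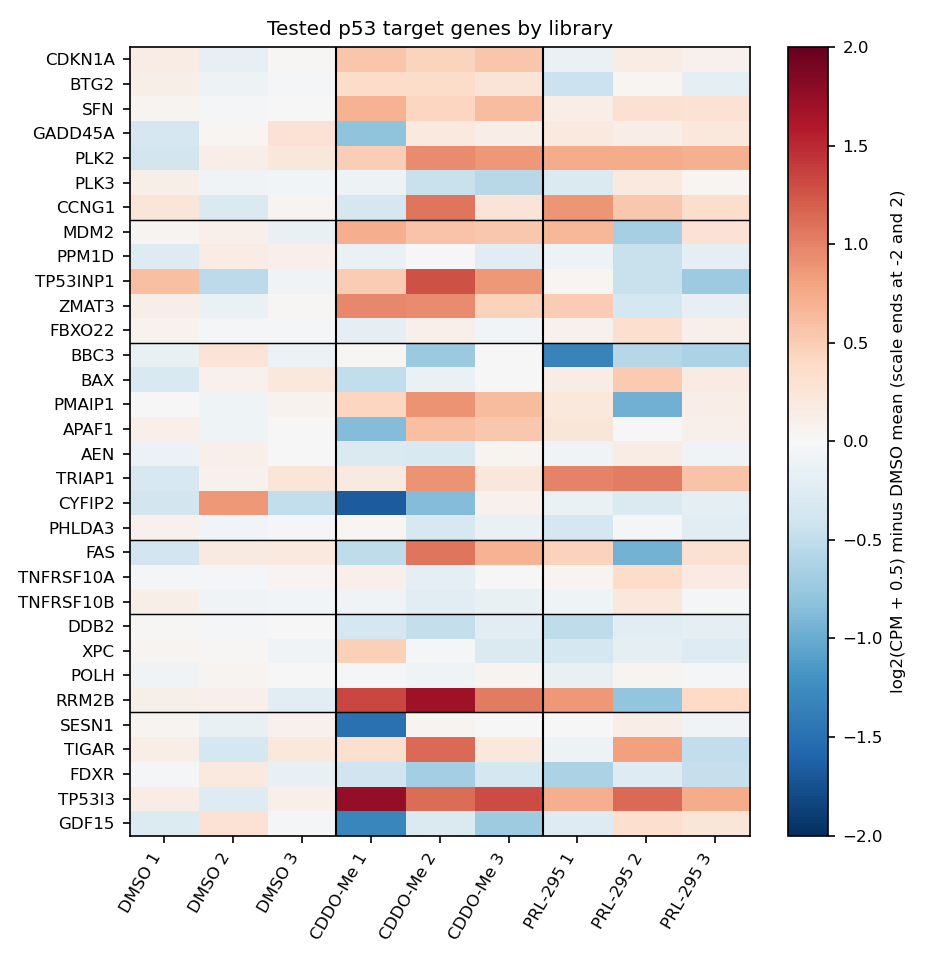
Difference of log2(CPM + 0.5) from the DMSO mean for each p53 target (rows, by role) in each library (columns), on a colour scale from -2 to 2. TP53I3, RRM2B and PLK2 are above the DMSO mean in all 3 CDDO-Me libraries.

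Among the cell cycle brakes, CDKN1A (ENSG00000124762, chr6:36676460-36687339, hg38) had 174, 140.1 and 161 CPM in the DMSO libraries, 232, 216 and 232 CPM with CDDO-Me and 144, 175 and 168 CPM with PRL-295. All 3 CDDO-Me libraries lay above all 6 others, and the DMSO and PRL-295 libraries overlapped. The increase with CDDO-Me was 0.52 on the log2 scale (SE 0.117; 95% interval 0.26 to 0.77), or 1.43-fold, with an adjusted p of 0.0226. With CDKN1A the call was lost without DMSO replicate 2 (adjusted p = 0.112), DMSO replicate 3 (0.0685), CDDO-Me replicate 2 (0.066), CDDO-Me replicate 3 (0.0669) or PRL-295 replicate 3 (0.0715), and a correction for GC content and gene length raised the value to 0.88.

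SFN (ENSG00000175793, chr1:26863138-26864457) had 1557, 1467 and 1497 CPM in the DMSO libraries, 2442, 2028 and 2299 CPM with CDDO-Me and 1654, 1863 and 1843 CPM with PRL-295. The 3 groups did not overlap at any point, with DMSO lowest, PRL-295 between and CDDO-Me highest. The product of SFN holds cyclin-dependent kinase complexes in the cytoplasm and is an abundant protein of stratified epithelia. CDDO-Me raised SFN by 0.58 on the log2 scale (SE 0.0973; 95% interval 0.37 to 0.80), or 1.497-fold, with an adjusted p of 0.00556 in edgeR. The call held in 9 of 9 fits that each left out 1 library, and the SFN value became 1.07 with the GC and length correction.

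PLK2 (ENSG00000145632, chr5:58453982-58460260), a polo-like kinase that acts in centriole duplication and stress checkpoints and whose half-site is shown above, had 115, 163 and 172 CPM in the DMSO libraries, 207, 286 and 270.2 CPM with CDDO-Me and 248, 248 and 243 CPM with PRL-295. All 6 libraries of both compounds lay above all 3 DMSO libraries. CDDO-Me raised PLK2 by 0.76 on the log2 scale (SE 0.162; 95% interval 0.41 to 1.12), or 1.70-fold, with an adjusted p of 0.0164 in edgeR. Without DMSO replicate 1 the adjusted p for PLK2 was 0.063, without DMSO replicate 2 it was 0.0595, without CDDO-Me replicate 2 it was 0.0674 and without CDDO-Me replicate 3 it was 0.0549.

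The other 4 cell cycle brakes did not pass. GADD45A, a stress sensor that binds p21 and PCNA and was the most abundant of these 4 per length, had 38.9, 50.5 and 60.1 CPM in the DMSO libraries, 27.9, 55.9 and 54.1 CPM with CDDO-Me and 56.1, 54.1 and 56.6 CPM with PRL-295. Its groups overlapped, and the log2 fold change with CDDO-Me was -0.12 (adjusted p = 0.808). The log2 fold change of BTG2, an antiproliferative regulator of mRNA decay, was 0.33 (adjusted p = 0.173), with no overlap between CDDO-Me and DMSO. PLK3, a second polo-like kinase, had -0.37 (adjusted p = 0.267), also without overlap, and CCNG1, which encodes cyclin G1, had 0.43 (adjusted p = 0.418) with overlap.

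In the feedback group, MDM2 (ENSG00000135679, chr12:68808172-68850686) had 16.5, 17.2 and 14.3 CPM in the DMSO libraries, 26.7, 23.9 and 23.3 CPM with CDDO-Me and 25.4, 9.91 and 19.7 CPM with PRL-295. The CDDO-Me libraries all lay above the DMSO libraries, whereas the PRL-295 libraries spread from below DMSO to the level of CDDO-Me. The MDM2 difference between CDDO-Me and DMSO was 0.62 on the log2 scale (95% interval 0.01 to 1.24) and did not pass in edgeR (adjusted p = 0.189). Without PRL-295 replicate 2, which had the lowest MDM2 value of all libraries, the same difference was 0.63 and passed (adjusted p = 0.0385). MDM2 passed in only 1 of 9 fits without 1 library and in 0 of 11 other settings. With the GC and length correction the difference was 0.28 (adjusted p = 0.561).

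FBXO22, an F-box protein of a ubiquitin ligase and the most abundant feedback gene per length, had 59.3 ± 2.43 CPM in the DMSO libraries, 57.5 ± 6.07 CPM with CDDO-Me and 67.2 ± 6.86 CPM with PRL-295 (SD, n = 3 each). Its DMSO and CDDO-Me values overlapped, and its log2 fold change with CDDO-Me was -0.04 (adjusted p = 0.872). ZMAT3, an RNA-binding protein that acts in splicing, had 7.78, 6.42 and 7.25 CPM in the DMSO libraries and 14.3, 14.1 and 9.95 CPM in the CDDO-Me libraries. These ZMAT3 values did not overlap, and the log2 fold change of 0.84 had an adjusted p of 0.0796 in edgeR. For TP53INP1, a pro-apoptotic cofactor of p53, the log2 fold change was 1.05 (adjusted p = 0.264). Its levels overlapped, at 0.799 to 2.35 CPM in the DMSO libraries and 2.16 to 4.04 CPM with CDDO-Me. PPM1D, the phosphatase that removes activating marks from p53, had -0.13 (adjusted p = 0.742).

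The mitochondrial death and survival group held 8 tested genes, 0 of them called with CDDO-Me, and a median log2 fold change of -0.16. PHLDA3, the most abundant per length, had 211, 192 and 194 CPM in the DMSO libraries, 204, 159 and 182 CPM with CDDO-Me and 155, 196 and 172 CPM with PRL-295. All 3 groups overlapped for PHLDA3, and its log2 fold change with CDDO-Me was -0.14 (adjusted p = 0.535). PMAIP1, which encodes the BH3-only protein NOXA, was the exception by overlap in this group, with 36.8, 34.4 and 38.4 CPM in the DMSO libraries and 49.4, 68.3 and 57.0 CPM in the CDDO-Me libraries. The PMAIP1 difference of 0.67 on the log2 scale had an adjusted p of 0.133 in edgeR. PMAIP1 was called higher with no filter on low counts, in the 6-library fit and without PRL-295 replicate 2. APAF1 was called higher without CDDO-Me replicate 1. The other 6 genes overlapped between CDDO-Me and DMSO: BBC3, which encodes the BH3-only protein PUMA (-0.23 on the log2 scale), BAX (-0.21), APAF1, the scaffold of the apoptosome (0.24), AEN, a nuclease of apoptotic cells (-0.18), TRIAP1, which restrains apoptosis (0.48), and CYFIP2, an actin regulator (-1.28, from 0 to 28 reads per CDDO-Me library). CYFIP2 shares 62 exon bases, 0.591% of its own, with ADAM19 on the opposite strand. ADAM19 had far more reads (84825 against 223 summed over the 9 libraries), so the CYFIP2 counts are uncertain.

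None of the 3 tested death receptors passed. TNFRSF10B, which encodes the TRAIL receptor DR5 and was the most abundant per length, had 142, 125.1 and 125.8 CPM in the DMSO libraries, 124.5, 113 and 118 CPM with CDDO-Me and 124, 151 and 127 CPM with PRL-295. The CDDO-Me libraries of TNFRSF10B lay just below the DMSO libraries, with a log2 fold change of -0.14 (adjusted p = 0.474). TNFRSF10A, which encodes DR4, had -0.02 (95% interval -0.30 to 0.25), and FAS, the receptor of the Fas ligand, had 0.56 (95% interval -0.43 to 1.55; adjusted p = 0.469). The TRAIL receptors are close paralogs, so reads that match more than 1 of them may be lost or misplaced.

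Of the DNA repair genes, RRM2B (ENSG00000048392), the p53-inducible small subunit of ribonucleotide reductase, had 5.15, 5.10 and 3.94 CPM in the DMSO libraries, 12.6, 16.2 and 10.2 CPM with CDDO-Me and 8.95, 2.52 and 6.37 CPM with PRL-295. Each CDDO-Me library was above every other library, and the PRL-295 libraries lay on both sides of DMSO. The RRM2B rise with CDDO-Me was 1.46 on the log2 scale (SE 0.394; 95% interval 0.59 to 2.32), or 2.75-fold, with an adjusted p of 0.0444 in edgeR. The RRM2B call was lost without DMSO replicate 1 (adjusted p = 0.122), 2 (0.131) or 3 (0.141), CDDO-Me replicate 2 (0.128) or 3 (0.0621), or PRL-295 replicate 3 (0.0691). RRM2B was called in 6 of 11 other settings; among those that lost the call were the GC and length correction (0.90; adjusted p = 0.104), limma on log2(FPKM + 1) (0.84; adjusted p = 0.0504) and limma on log2(FPKM + 0.1) (adjusted p = 0.083). The longest transcript of RRM2B is 36.4% GC. Across all tested genes, counts correlated with GC content at -0.0168, -0.546 and -0.143 in CDDO-Me replicates 1, 2 and 3. Whether base composition contributed to the RRM2B rise was not tested separately from the treatment.

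DDB2, the damage-recognition subunit of nucleotide excision repair, had 73.5, 71.5 and 72.0 CPM in the DMSO libraries, 56.8, 51.6 and 61.9 CPM with CDDO-Me and 50.8, 62.6 and 63.3 CPM with PRL-295. All 6 compound libraries lay below all 3 DMSO libraries, but the log2 fold change of -0.35 with CDDO-Me did not pass (adjusted p = 0.115 in edgeR) and was -0.17 with the GC and length correction. XPC, the DNA-binding partner in the same repair pathway, had 0.09 (adjusted p = 0.85) and shares exon bases with LSM3, and POLH, the translesion polymerase eta, had -0.02 (95% interval -0.35 to 0.32).

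In the metabolic and redox group, TP53I3 (ENSG00000115129, chr2:24077433-24085861), a quinone reductase-like enzyme also called PIG3, had 11.0, 8.17 and 10.6 CPM in the DMSO libraries, 34.5, 21.8 and 24.98 CPM with CDDO-Me and 16.6, 22.1 and 16.8 CPM with PRL-295. All 6 compound libraries lay above DMSO, and PRL-295 replicate 2 lay above CDDO-Me replicate 2. TP53I3 rose with CDDO-Me by 1.45 on the log2 scale (SE 0.226; 95% interval 0.95 to 1.95), or 2.73-fold, with an adjusted p of 0.00375 in edgeR. The TP53I3 call held in 9 of 9 fits that each left out 1 library and in 11 of 11 other settings, and the GC and length correction gave 1.88.

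FDXR, the mitochondrial ferredoxin reductase that feeds electrons to steroid and iron-sulfur enzymes and whose half-site is shown above, had 64.1, 75.2 and 59.5 CPM in the DMSO libraries, 49.8, 40.9 and 51.7 CPM with CDDO-Me and 42.6, 55.1 and 47.8 CPM with PRL-295. All 6 compound libraries lay below DMSO for FDXR. Its log2 fold change with CDDO-Me of -0.48 had an adjusted p of 0.074 in edgeR, and DESeq2 called it lower. With the GC and length correction the value was -0.11 (adjusted p = 0.761). GDF15, a secreted stress cytokine, was near the detection limit, with 13, 33 and 23 reads in the DMSO libraries and 0, 15 and 6 in the CDDO-Me libraries, and its difference was not resolved (log2 fold change -1.56, 95% interval -4.03 to 0.91). SESN1, a leucine sensor that restrains mTORC1, had -0.37 (adjusted p = 0.646). TIGAR, a fructose bisphosphatase that slows glycolysis, had 0.85 (adjusted p = 0.488). Its levels were 0.584 to 1.09 CPM in the DMSO libraries and 1.10 to 2.51 CPM with CDDO-Me, just without overlap.

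**Figure D3:**
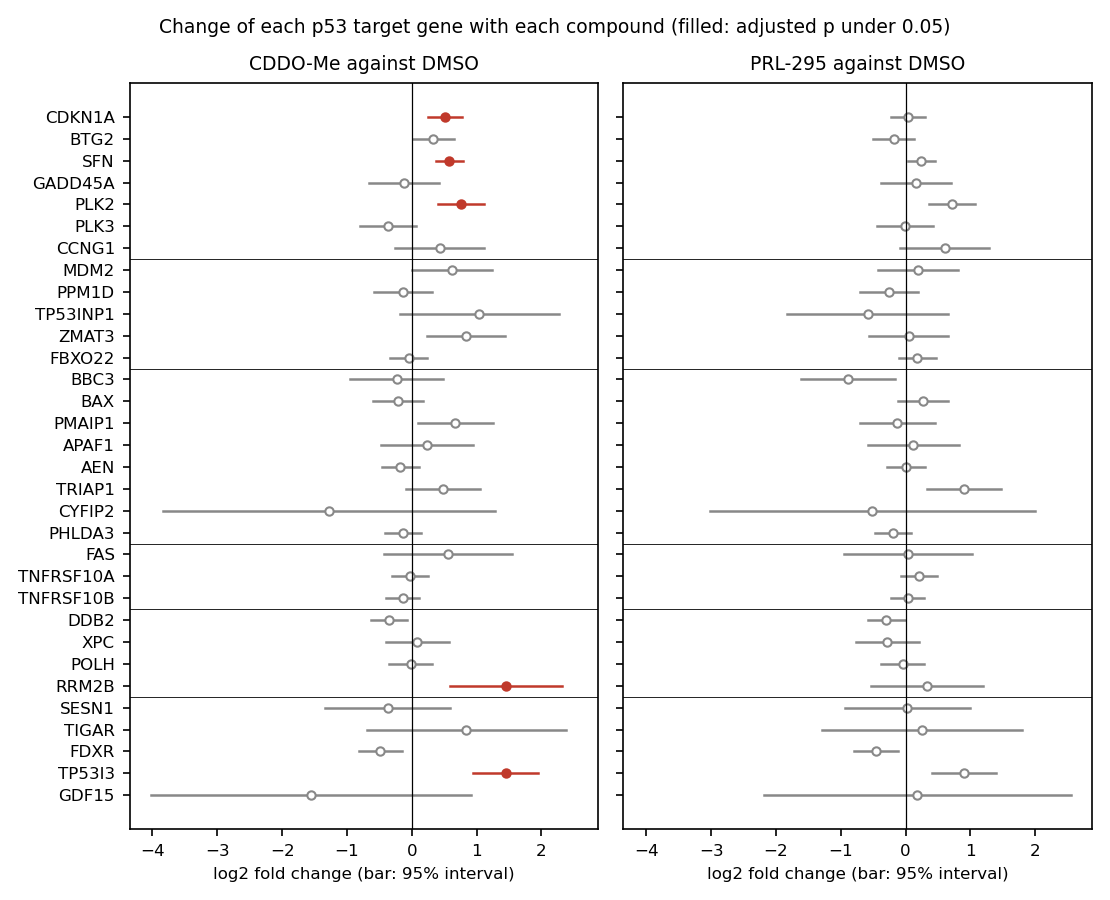
Log2 fold change of each tested p53 target with CDDO-Me against DMSO and PRL-295 against DMSO, with 95% intervals from edgeR. The intervals of TP53I3, PLK2 and SFN lie above 0 for both compounds, and those of DDB2 and FDXR lie below 0 for both. That of RRM2B lies above 0 only for CDDO-Me.

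Counted by overlap alone, 10 of the 32 genes (31.2%) had all 3 CDDO-Me libraries above all 3 DMSO libraries, where 15.5% of all tested genes did. A further 5 (15.6%) had all 3 below, where 16.3% of all tested genes did. The 10 were the 5 called genes with BTG2, MDM2, ZMAT3, PMAIP1 and TIGAR, and the 5 were PLK3, TNFRSF10B, DDB2, FDXR and GDF15. At an unadjusted p under 0.05, 11 of the 32 (34.4%) and 26% of all tested genes differed.

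PRL-295 moved none of the 32 genes past the threshold in edgeR's fit of 9 libraries. At that threshold 0.462% of all tested genes rose with PRL-295 and 0.222% fell. At an unadjusted p under 0.05 there were 7 of the 32 genes (21.9%), where 12.9% of all tested genes passed, and DESeq2 called 3 higher (PLK2, TRIAP1 and TP53I3), and none lower, where of the genes it gave an adjusted p it called 4.09% higher and 1.83% lower. The median log2 fold change was 0.04 over the 32 genes and -0.01 over all tested genes. The 9-library fit also takes in the CDDO-Me libraries. Over all tested genes the median SD of log2 CPM was 0.373 with CDDO-Me, 0.229 with DMSO and 0.223 with PRL-295. An edgeR fit of the 6 DMSO and PRL-295 libraries called 3 of the p53 targets higher (PLK2, TRIAP1 and TP53I3) and 0 lower. Over all its genes, that fit called 494 higher and 156 lower. All 3 PRL-295 libraries lay above DMSO for 7 genes (21.9%; 13.5% of all tested genes) and below it for 4 (12.5%; 13.7% of all).

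The nearest to the threshold was PLK2, at 0.72 on the log2 scale (95% interval 0.36 to 1.07; adjusted p = 0.0843 in edgeR). PLK2 was called in 3 of 11 other settings, among them DESeq2 (adjusted p = 0.00342) and the fit of the 6 libraries compared (0.0207). In edgeR fits without 1 library, PLK2 was called in 2 of 9. These were the fits without CDDO-Me replicate 1 (0.0179) or CDDO-Me replicate 2 (0.045), and the adjusted p reached 0.333 in the others. TP53I3 stood at 0.90 (95% interval 0.41 to 1.39, adjusted p = 0.116 in edgeR). It was called in 3 of 11 other settings, among them DESeq2 (0.0128) and the 6-library fit (0.0366). In edgeR fits without 1 library, TP53I3 was called in 1 of 9, without CDDO-Me replicate 1 (0.027), and the adjusted p reached 0.427 in the others. TRIAP1 had 6.97, 9.37 and 10.5 CPM in the DMSO libraries and 18.01, 18.5 and 13.4 CPM with PRL-295, without overlap, and a log2 fold change of 0.90 (adjusted p = 0.168). SFN had 0.25 (95% interval 0.03 to 0.46; adjusted p = 0.313). BBC3 had 6.44, 8.76 and 6.56 CPM in the DMSO libraries and 2.54, 4.69 and 4.48 CPM with PRL-295, again without overlap, and a value of -0.89 (95% interval -1.62 to -0.16; adjusted p = 0.279).

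CDKN1A and MDM2 did not pass with PRL-295. The CDKN1A difference was 0.04 on the log2 scale (95% interval -0.22 to 0.29). With CDDO-Me it was 0.52 (95% interval 0.26 to 0.77), and the ends of these intervals overlap. The MDM2 interval was wider, from -0.42 to 0.82 around 0.20, and RRM2B had 0.33 (adjusted p = 0.818). DDB2 had -0.30 (adjusted p = 0.368) and FDXR -0.45 (adjusted p = 0.238). TRIAP1, BBC3 and the other genes given with values beyond the rule for named genes were chosen after their values were seen. Both compound comparisons share the 3 DMSO libraries, so their values are set side by side without a measure of likeness.

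**Figure D4:**
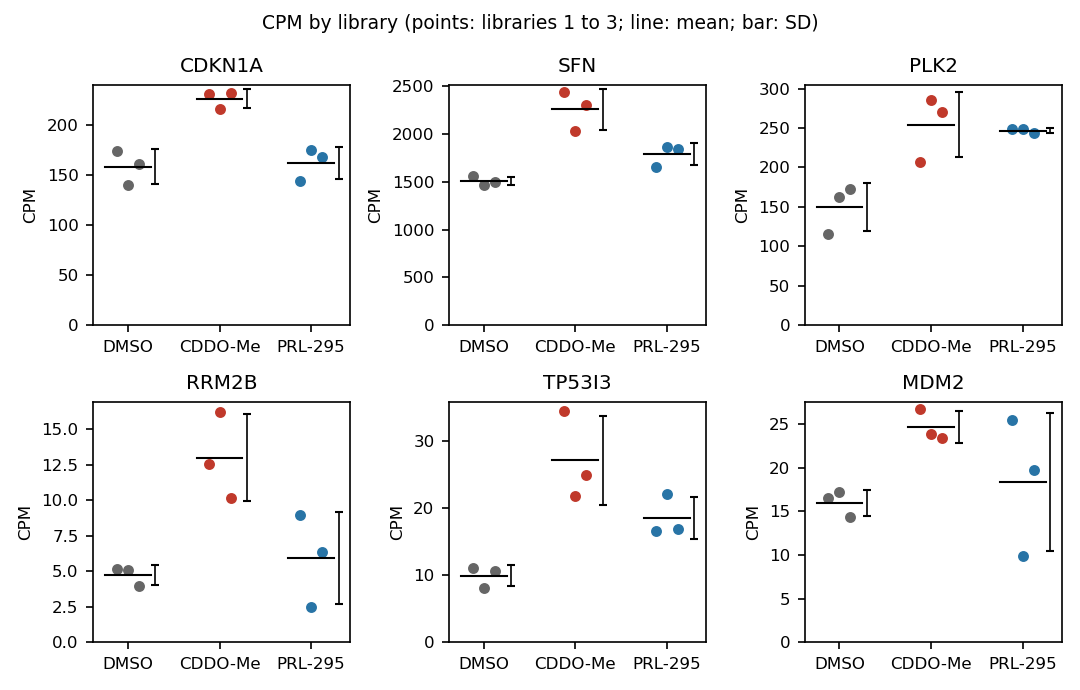
CPM in each library of the 5 p53 targets called with CDDO-Me and of MDM2, with the group means and SDs; each panel has its own axis from 0. The CDDO-Me libraries of CDKN1A, at 216 to 232 CPM, lie above all others, whereas for PLK2 the libraries of both compounds lie above DMSO.

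Tested against each other, the compounds separated none of the 32 genes at an adjusted p under 0.05 in edgeR, where 0.905% of all tested genes were higher with PRL-295 and 0.684% lower. At an unadjusted p under 0.05, 9 of the 32 (28.1%) differed, where 17.2% of all tested genes did, and DESeq2 called 4 lower with PRL-295 (CDKN1A, BTG2, SFN and PMAIP1) and none higher, where it called 3.84% of its genes lower and 4.68% higher. The difference for CDKN1A, PRL-295 minus CDDO-Me, was -0.48 on the log2 scale (95% interval -0.74 to -0.22; adjusted p = 0.0718), and the GC and length correction brought it past the threshold (-0.71; adjusted p = 0.0269). SFN had -0.34 (adjusted p = 0.112), BTG2 -0.51 (adjusted p = 0.106), RRM2B -1.13 (adjusted p = 0.172) and PMAIP1 -0.80 (adjusted p = 0.157). PLK2 had -0.04, with an interval from -0.40 to 0.31, and TP53I3 -0.55 (adjusted p = 0.234). Libraries of the compounds did not overlap for 8 genes: the PRL-295 libraries lay above for BAX and GDF15 (6.25% of the 32; 14.4% of all tested genes) and below for CDKN1A, BTG2, SFN, TP53INP1, PMAIP1 and RRM2B (18.8%; 10.2% of all). The test among all 3 groups called 4 of the 32 genes, CDKN1A, SFN, PLK2 and TP53I3, where 5.68% of all tested genes were called. That count was 1 without DMSO replicate 1, DMSO replicate 3, CDDO-Me replicate 3 or PRL-295 replicate 3, and 0 without DMSO replicate 2. The compounds were given at different doses, so these differences belong to the doses used.

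Of 25 regulators and relatives of p53, 3 rose with CDDO-Me (12%, where 4.65% of all tested genes rose) and none fell (4.57% of all); 1 rose with PRL-295 (4%; 0.462% of all). HIPK2, a kinase that phosphorylates p53, rose from 5.61 ± 0.128 to 19.7 ± 2.82 CPM (SD, n = 3 each), or by 1.81 on the log2 scale (adjusted p = 0.0029), in every setting tried. USP7, the deubiquitinase of MDM2 and p53, rose with both compounds, by 0.56 with CDDO-Me (adjusted p = 0.0147) and 0.635 with PRL-295 (adjusted p = 0.0352) in log2 units. TP63 rose with CDDO-Me from 112 ± 12.3 to 170.2 ± 38.3 CPM (SD, n = 3 each), a log2 change of 0.60 with an adjusted p of 0.0447; its change with PRL-295 was 0.29 (adjusted p = 0.511). TP73 was low, at 3.89 CPM in the DMSO libraries, and did not pass (-0.49 and -1.23; adjusted p = 0.406 and 0.163). The GC and length correction left HIPK2 as the 1 regulator called with CDDO-Me and none with PRL-295. Of all 16239 tested genes it called 481 higher and 243 lower with CDDO-Me, and 92 higher and 33 lower with PRL-295. TP63 was then at 0.28 (adjusted p = 0.276) and USP7 at 0.43 with CDDO-Me (adjusted p = 0.103) and at 0.53 with PRL-295 (adjusted p = 0.133). Among fits without 1 library, the USP7 call with CDDO-Me was lost without DMSO replicate 1 (0.0557), 2 (0.082) or 3 (0.0535) or CDDO-Me replicate 2 (0.0789). The TP63 call was lost without DMSO replicate 1 (0.166), 2 (0.112) or 3 (0.102), CDDO-Me replicate 2 (0.159) or 3 (0.113), or PRL-295 replicate 1 (0.0602) or 3 (0.0853). The USP7 call with PRL-295 was lost without any 1 of the 3 DMSO or the 3 PRL-295 libraries (0.102 to 0.199) and without CDDO-Me replicate 3 (0.0665).

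A further list of 35 p53 targets, 29 of them tested, moved in both directions with CDDO-Me, with 6 higher (20.7%, where 4.65% of all tested genes rose), 3 lower (10.3%; 4.57% of all) and a median log2 fold change of -0.04. KITLG, the ligand of the receptor KIT, rose by 1.60 (adjusted p = 0.0309), SERPINB5, the epithelial serpin maspin, by 0.84 (adjusted p = 0.0134) and ASCC3, a helicase of the alkylation damage response, by 0.79 (adjusted p = 0.025). TRIM22, an antiviral ubiquitin ligase, fell from 83.6 ± 11.5 to 31.7 ± 10.3 CPM (SD, n = 3 each), a log2 fold change of -1.40 (adjusted p = 0.00329) that was called in every setting tried. With the GC and length correction 2 of the 29 were called higher and 1 lower, where 481 of all 16239 tested genes were higher and 243 lower. KITLG was then at 1.07 (adjusted p = 0.072), SERPINB5 at 0.55 (adjusted p = 0.0732) and ASCC3 at 0.35 (adjusted p = 0.345). The calls of KITLG, SERPINB5 and ASCC3 were each lost without DMSO replicate 1 (0.0936, 0.0723 and 0.0646) or DMSO replicate 2 (0.131, 0.0767 and 0.0824). Those of KITLG and ASCC3 were also lost without DMSO replicate 3 (0.0827 and 0.0942) or CDDO-Me replicate 2 (0.106 and 0.0615), and that of KITLG without PRL-295 replicate 3 (0.0507). With PRL-295 none of the 29 passed in edgeR, 10 (34.5%; 12.9% of all tested genes) had an unadjusted p under 0.05, and DESeq2 called 2 higher and 3 lower. Between the compounds, edgeR called 1 higher with PRL-295 (NINJ1, 0.77 on the log2 scale, adjusted p = 0.025; 3.45% of the 29, where 0.905% of all were) and 2 lower (PERP, -0.61, adjusted p = 0.022; SLC12A4, -0.69, adjusted p = 0.0419; 6.9%, where 0.684% of all were). These 3 are named after their values were seen. NINJ1 was still called without CDDO-Me replicate 1 or 2, PERP without DMSO replicate 1 or 3 or CDDO-Me replicate 1 or 3, and SLC12A4 without CDDO-Me replicate 2; without any other library each lost its call (adjusted p from 0.0533 to 0.198). The GC and length correction ended the calls of NINJ1 (adjusted p = 0.144) and PERP (0.178).

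None of 17 proliferation genes that p53 lowers through p21 and the DREAM complex, such as CDK1 and CCNB1, passed in any comparison in edgeR, with median log2 fold changes of 0.18 with CDDO-Me and 0.21 with PRL-295. At an unadjusted p under 0.05 there were 5 (29.4%) and 3 (17.6%) of the 17, near the 26% and 12.9% of all tested genes, and DESeq2 called 1 higher with each compound. Of 9 genes of the ATF4 and CHOP stress response, which also reaches some p53 targets, 1 was called with CDDO-Me. It fell, which makes 11.1% of the 9, where 4.57% of all tested genes fell. That gene was DDIT4, an inhibitor of mTORC1, which fell from 38.2 ± 6.48 to 20.4 ± 1.497 CPM (SD, n = 3 each), by 0.91 on the log2 scale (log2 fold change -0.91, adjusted p = 0.00801), and had -0.52 with the GC and length correction (adjusted p = 0.116). None of the 9 was called with PRL-295 in edgeR, and DESeq2 called 1 higher. With the GC and length correction 1 of the 9 was called higher with each compound and none lower. That correction called 481 of the 16239 tested genes higher with CDDO-Me and 92 with PRL-295.

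In some libraries the p53 targets deviated from the group mean in a way that followed base composition. PRL-295 replicate 2 was the highest of its group in 19 of the 32 genes and the lowest in 9, and PRL-295 replicate 1 was the lowest in 17. Across the 32 genes, deviations from the group mean correlated with GC content at r = -0.796 in PRL-295 replicate 1 and 0.532 in PRL-295 replicate 2. In CDDO-Me replicate 2 the correlation was -0.457. In the other libraries, among them all of the DMSO group, it was weaker, from -0.223 to 0.25. These genes share the libraries and their composition, so the values are a description. The log2 fold change with CDDO-Me correlated with GC content at r = -0.449 over the 32 genes, and at 0.05 after the GC and length correction. The median GC content was 49.8% for the 32 genes and 49.2% for all tested genes, against 42.4% for all genes called higher with CDDO-Me and 57.2% for those called lower. Among the genes called higher here, CDKN1A (58.1%), SFN (62.8%) and TP53I3 (58.4%) were GC-rich, PLK2 (47.2%) was near the median and RRM2B (36.4%) was GC-poor. The correction turned the sign of 9 of the 32 genes with CDDO-Me, none of which had been further from 0 than 0.43. It kept the calls of CDKN1A, SFN, PLK2 and TP53I3. Across all tested genes the trend with GC content differed between DMSO and CDDO-Me, so composition and treatment cannot be told apart there.

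**Figure D5:**
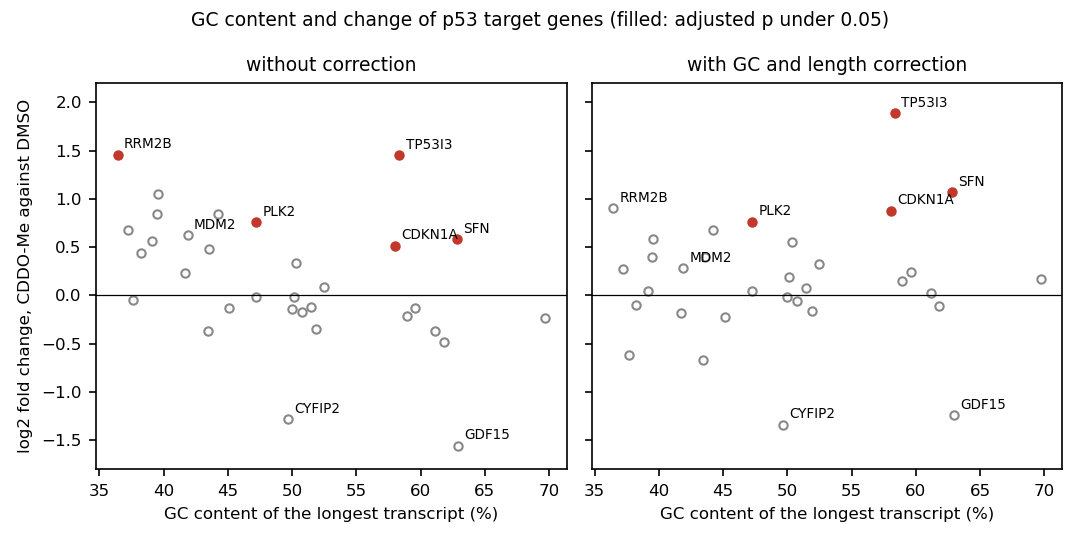
Log2 fold change with CDDO-Me against DMSO plotted against the GC content of the transcript for the 32 tested p53 targets, as fitted and after the GC and length correction. Values fall with GC content as fitted (r = -0.449) and not after the correction (r = 0.05), where TP53I3, SFN, CDKN1A and PLK2 are above 0 and pass the test (filled points).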

How the data were processed

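RNA sequencing counts were read for 9 HaCaT libraries, 3 per group. Per the submitters' processing notes, reads were handled on hg38 with tools that include STAR 2.5 and HTSeq 0.6.1, and the authors deposited raw counts per gene. They also deposited FPKM; 100% of these values followed from the count and the deposited gene length to within 0.1%. Whether counting used strand is not given in the sources used here.

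Counts were fitted with edgeR 4.0.16 in R 4.3.3 (filterByExpr, TMM, quasi-likelihood test, 1 model of 9 libraries), with Benjamini-Hochberg adjustment over 16239 genes and a threshold of 0.05. FPKM served for levels between genes. The script was tested on simulated data with the same dispersion for every gene and no GC trend. This tests the code and not the calls made here. Alternatives were DESeq2 1.42.0, limma 3.58.1 on log2(FPKM + 1) and log2(FPKM + 0.1), other scalings and filters, a replicate block, offsets for GC content and length (splines, 5 df each), 6-library fits and each library left out.

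The members and lists were chosen with earlier results of these data known. Named genes were the called members, CDKN1A, MDM2, the most abundant remaining member of each role, up to 4 called genes per pathway list, and TP63 and TP73; 1 further gene of this rule is not reported here.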

Additional observations from a re-analysis of the deposited data

How the results depend on the processing

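The counts of genes called over the whole table were 1497 for CDDO-Me, 111 for PRL-295, 258 between the compounds and 922 in the test among groups. DESeq2 gave 2616, 607, 1035 and 2580, and testing without a filter on low counts gave 2509, 825, 1250 and 2841. The 6-library fits gave 650 for PRL-295 and 45 between the compounds. The GC and length correction gave 724 for CDDO-Me, 542 of them shared with the 1497, and 573 among groups. Without 1 library the ranges were 400 to 2803, 33 to 589, 60 to 285 and 287 to 1919. Of the 1497, 755 were higher and 742 lower; this split was 1676 and 833 with no filter, 560 and 891 with limma on log2(FPKM + 1) and 481 and 243 with the GC and length correction. Of the p53 targets, DESeq2 called 1 lower with CDDO-Me, 3 higher with PRL-295, 4 lower between the compounds and 10 among groups. With no filter 3 were higher with PRL-295, 1 was higher and 3 lower between the compounds and 8 were called among groups. The 6-library fit called 3 higher with PRL-295, and the GC and length correction 1 lower between the compounds. Without 1 library the called p53 targets ranged from 2 to 7 with CDDO-Me (0 to 0 lower), 0 to 2 with PRL-295, 0 to 0 between the compounds and 0 to 6 among groups. Signs turned for RRM2B with PRL-295 under the GC and length correction (-0.0241), under that correction with the block (-0.052) and without PRL-295 replicate 1, with a range of -0.0832 to 0.6996 over fits without 1 library. For CDKN1A with PRL-295 that range was -0.0425 (without DMSO replicate 2) to 0.1199, also below 0 without PRL-295 replicate 2, and for MDM2 it was -0.11 (without PRL-295 replicate 1) to 0.5006. For PLK2 between the compounds it was -0.1702 to 0.0902, above 0 without CDDO-Me replicate 2, CDDO-Me replicate 3 or PRL-295 replicate 3. Causes other than the fewer libraries or genes were not tested.

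Same-numbered libraries deviated together with correlations from -0.137 to 0.104, so the numbers were not taken to pair the samples. With the replicate block 864, 60, 156 and 459 genes were called, and 3 p53 targets with CDDO-Me (SFN, PLK2 and TP53I3; CDKN1A had an adjusted p of 0.0516 and RRM2B of 0.078, or 0.131 with the GC and length correction added). The block with the GC and length correction gave 617 genes for CDDO-Me, 161 between the compounds and 491 among groups. At 3 libraries per group, genes with few reads such as GDF15, CYFIP2 and TIGAR had intervals too wide to show changes of the size seen for CDKN1A.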
